A study of Homo sapiens with 5 samples.

Results

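Protein tyrosine phosphatases were examined in D54, an established human glioma cell line, with and without the small protein TIP-1. The genes were taken by symbol from the deposited value table: every row with 1 annotated symbol starting with PTPR, or with PTPN followed by a digit, and for each gene the row with the highest mean over the 5 arrays. This gave 34 genes on 37 rows, of 18417 genes with such a row and 33297 rows in all. PTPRCAP encodes a protein that binds the receptor PTPRC and is not a phosphatase, so 33 genes were analysed, 16 named as receptors and 17 named as non-receptor enzymes. PTPRA shared its row with VPS16 and is given only as that shared row, and PTPRJ, PTPRQ and PTPRT were not analysed here.

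The TIP-1 shRNA group was 3 D54 samples transfected with TIP-1 shRNA, each with a different shRNA sequence (shRNA 1, 2 and 3). The control shRNA group was 2 D54 samples transfected with control shRNA, which were independent clones. All cells were trypsinised, seeded in DMEM/F12 and grown overnight before total RNA was taken, and each sample was hybridised to 1 Affymetrix array with no technical replicate. A difference therefore sets 3 shRNAs of 1 array each against 2 clones, and its error is the spread between them.

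Protein tyrosine phosphatases remove the phosphate that tyrosine kinases add, through a cysteine in the active site. The receptor enzymes carry an extracellular part that meets matrix, neighbouring cells or soluble ligands, while the non-receptor enzymes are brought to their substrates by other domains. TIP-1 consists of little more than a single PDZ domain, which binds the tails of other proteins, and PTPN3, PTPN4 and PTPN13 carry PDZ domains of their own. PTPRB, also called VE-PTP, is known mainly from blood vessels, where it restrains the angiopoietin receptor TEK and the vessel cadherin CDH5.

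The arrays were comparable in scale, and the median log2 signal was 7.88 to 7.95 with TIP-1 shRNA and 7.96 and 7.98 in the controls. The row shared by TAX1BP3, the gene of TIP-1, and its read-through transcript had a log2 signal of 9.66 ± 0.13 (SD, n = 3) in the TIP-1 shRNA arrays and 12.08 ± 0.04 (SD, n = 2) in the controls, a 5.35-fold reduction (limma adjusted p = 0.0110). It was the only row of 33297 past an adjusted p of 0.05, so 0.00300% of rows were called. Of the glioma and astrocyte markers, VIM read 13.84 to 14.02 in the TIP-1 shRNA arrays against 14.02 and 13.95 in the controls, and GFAP read 7.86 to 8.14 against 8.04 and 8.14, close to the array medians. SOX2 lay below the array medians, at 7.05 to 7.26 against 7.13 and 7.12. So did S100B, SLC1A3 and AQP4, with means over the 5 arrays of 6.27, 6.43 and 5.61. CD44 was bright, with a mean of 13.78, and NES lay close to the array medians, with 7.91. The table holds no detection call, so a dim gene could not be called absent.

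PTPRB was higher in every TIP-1 shRNA array than in either control, by 1.83-fold on average. Its log2 signal was 9.21, 9.26 and 9.26 with shRNAs 1, 2 and 3, against 8.30 and 8.44 in controls 1 and 2. The 3 shRNAs lay within a narrow band, and the gap to the controls was several times the distance between the controls. The mean was 9.24 ± 0.03 (SD, n = 3) in the TIP-1 shRNA arrays and 8.37 ± 0.10 (SD, n = 2) in the controls. The log2 difference was 0.87 (SE 0.09, 95% interval 0.66 to 1.08), which is 1.58 to 2.12-fold. Of all 33297 rows, PTPRB ranked 7 by unadjusted p (4.48e-05), and 46 rows, PTPRB included, had a difference at least as high. It did not pass the test over all rows (limma adjusted p = 0.213).

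**Figure D1:**
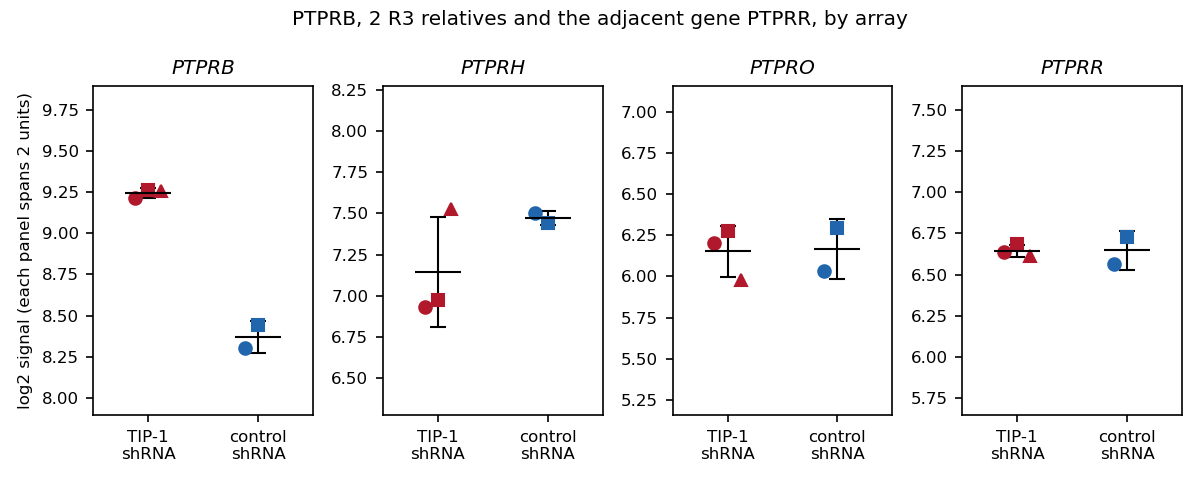
Log2 signal of PTPRB, of the measured receptors of its subtype, PTPRH and PTPRO, and of the adjacent gene PTPRR, in each array (TIP-1 shRNA in red, control shRNA in blue; circle, square and triangle for numbers 1, 2 and 3; bars are the mean and SD). PTPRB reads 9.21 to 9.26 with TIP-1 shRNA and 8.30 and 8.44 in the controls, while the groups overlap in the other 3 genes.

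PTPRB belongs to the R3 subtype, receptors with fibronectin type repeats outside the cell and a single phosphatase domain inside it. Of its relatives, PTPRH and PTPRO had a row. PTPRH, first described in stomach cancer cells, read 6.93, 6.97 and 7.53 with shRNAs 1, 2 and 3, against 7.50 and 7.44 in the controls. shRNAs 1 and 2 were low and shRNA 3 lay above both controls, so the groups overlapped (log2 difference -0.33, 95% interval -0.79 to 0.13, limma adjusted p = 0.723). Without shRNA 3 the difference of PTPRH was -0.52. PTPRO, a receptor of kidney podocytes and neurons, read 6.20, 6.28 and 5.98 in the TIP-1 shRNA arrays and 6.04 and 6.30 in the controls. Its groups also overlapped, and its difference was -0.01 (95% interval -0.33 to 0.30).

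The difference of PTPRB was tested against that of these relatives within arrays. PTPRB minus the mean of PTPRH and PTPRO was 2.65, 2.64 and 2.51 with shRNAs 1, 2 and 3, against 1.54 and 1.57 in the controls. The level of this quantity depends on the probes of the rows and carries no meaning of its own. Between the groups, PTPRB differed by 1.04 log2 units more than the mean of PTPRH and PTPRO. The exact permutation test over the 10 splits of the arrays gave p = 0.1 (two-sided), which is the smallest p that 3 arrays against 2 allow, so the design cannot reach 0.05. Against PTPRH alone the gap was 1.20 and against PTPRO alone 0.89, each with the same p. Against PTPRR, which is not of the R3 subtype, it was 0.88, again with that p. The separated values of PTPRB itself bring each p to its smallest value, so these tests show nothing particular to the R3 relatives.

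PTPRB and PTPRR are neighbours on the same chromosome in the gene table of assembly GRCh38.p14. PTPRR, a membrane-anchored phosphatase that acts on MAP kinases, read 6.64, 6.68 and 6.61 with shRNAs 1, 2 and 3, against 6.56 and 6.73 in the controls. All 3 TIP-1 shRNA values lay between the controls (95% interval of the difference -0.22 to 0.22). Of the 5 protein-coding genes on each side of PTPRB, all 10 had a row, with differences from -0.11 to 0.64 log2 units. None of these 10 reached an unadjusted p of 0.05, which 6.02% of all genes did. In all 3 shRNA arrays, 26.5% of all genes lay apart from both controls, and 1 of the 10 did. This was LGR5, a stem cell receptor named after its values were seen, at 6.59, 6.69 and 7.71 with shRNAs 1, 2 and 3, against 6.31 and 6.40 in the controls (difference 0.64, SE 0.33).

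Genes of the proteins that work with PTPRB in vessels did not share its direction. Of 7 such genes (TEK, TIE1, ANGPT1, ANGPT2, ANGPT4, CDH5 and KDR), 0 were above 0 and 7 below. Of all genes, 47.6% were above 0. Marker lists of other cell types also leaned below 0. Genes above and below numbered 0 and 6 in the oligodendrocyte lineage and 1 and 10 in leukocytes. They numbered 2 and 4 in neurons and 3 and 5 in astrocytes and glioma. The lists given below had 14 and 16 (ligands), 12 and 11 (adaptors) and 8 and 13 (other phosphatases). The direction was therefore not particular to these 7 genes. The median difference of the 7 was -0.13, and none had an unadjusted p under 0.05, which 6.02% of all genes had. In all 3 shRNA arrays, 3 of them lay below both controls (42.9%, against 14.1% of all genes). All 7 rows read below the array medians. TEK read 6.36, 6.34 and 6.38 with TIP-1 shRNA against 6.48 and 6.52, KDR differed by -0.21 (-0.11 without shRNA 1) and ANGPT4 by -0.13. With median centring, the differences of TEK, KDR and ANGPT4 were -0.08, -0.15 and -0.07. The 10 endothelial markers had a log2 summed signal of 10.49, 10.46 and 10.41 in the TIP-1 shRNA arrays, against 10.48 and 10.51 in the controls. Of these markers, 3 were higher and 7 lower, and 4 lay apart from both controls in all 3 shRNA arrays (40%, against 26.5% of all genes). EMCN lay above the controls, and TEK, KDR and VWF below them. CDH5 read 7.12 to 7.29 against 7.19 and 7.25, and PECAM1 read 6.69 to 6.74 against 6.61 and 6.75. TEK, TIE1, CDH5 and KDR are in both lists. Log2 signals have no true zero, so no marker could be said to be at 0, and the part of endothelial RNA in the difference of PTPRB was not tested.

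Across the 33 phosphatase genes, none passed the test over all rows. At an unadjusted p under 0.05 there were 3 genes, or 9.09%, against 6.02% of all 18417 genes. All 3 were higher (PTPRB, PTPN20 and PTPRK), where 3.08% of all genes were, and 0 were lower, where 2.94% of all genes were. PTPRB was named when the set was chosen, and without it 2 of 32 genes had such a p. That is 6.25%, near the share of all genes. All 3 TIP-1 shRNA arrays lay on the same side of both controls in 8 of the 33 (24.2%), against 26.5% of all genes. These 8 were PTPRB, PTPN20, PTPRK, PTPN3 and PTPN11 above the controls, where 12.5% of all genes lay, and PTPRN, PTPRN2 and PTPN5 below them, where 14.1% lay. Both shares were near those of all genes. The median difference was 0.02 over the phosphatases and -0.01 over all genes. Of the 33, 19 differed by less than 0.1 log2 units, a share that was not counted over all genes. Without PTPRB, the differences ran from -0.53 to 0.34.

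**Figure D2:**
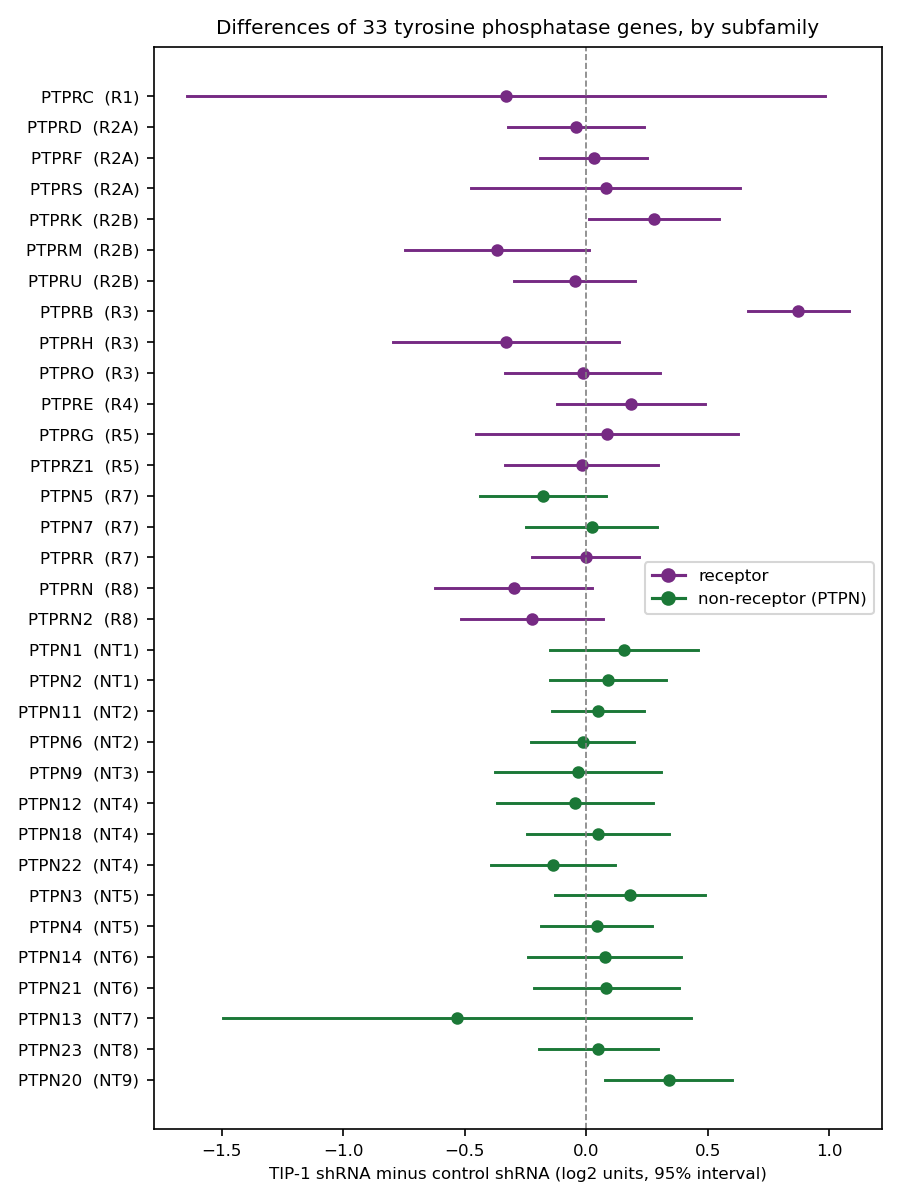
Difference between TIP-1 shRNA and control shRNA (log2 units, x axis) for each of the 33 phosphatase genes, with limma's 95% interval, grouped by subfamily (receptors purple, non-receptor genes green). The interval of PTPRB runs from 0.66 to 1.08 and overlaps only the interval of PTPRC, and PTPRK and PTPN20 are the only other genes with intervals above 0.

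Among the receptors that bind their own kind between neighbouring cells (subtype R2B), PTPRK and PTPRM pointed in opposite directions. PTPRK, a receptor found at cell contacts, read 10.32, 10.58 and 10.59 with shRNAs 1, 2 and 3, against 10.21 and 10.23 in the controls. All 3 were above both controls, shRNA 1 by the least, and the difference was 0.28 (SE 0.11, 95% interval 0.01 to 0.55, limma adjusted p = 0.707). PTPRM, which binds itself across cell contacts, read 9.97, 9.87 and 10.25 in the TIP-1 shRNA arrays and 10.22 and 10.57 in the controls. The value of shRNA 3 lay just above control 1, so the groups overlapped (difference -0.37, 95% interval -0.75 to 0.01). Control 2 was the highest of the 5 arrays, and without it the difference of PTPRM was -0.19. PTPRU, the remaining measured member of the subtype, differed by -0.05.

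The receptors that bind proteoglycans and organise synapses (subtype R2A) were PTPRF, PTPRS and PTPRD. PTPRF, also called LAR, read 11.10, 11.02 and 11.02 with shRNAs 1, 2 and 3, against 11.09 and 10.94 in the controls, with a difference of 0.03 (95% interval -0.19 to 0.25). PTPRS, a receptor for chondroitin and heparan sulphate on neurons, read 10.83, 10.75 and 11.50 in the TIP-1 shRNA arrays, against 10.97 and 10.92 in the controls. Only shRNA 3 was above the controls, and shRNAs 1 and 2 were below them. Its difference of 0.08 became -0.16 without shRNA 3. PTPRD, often deleted in glioblastoma, read 6.57 to 6.86 against 6.67 and 6.83, below the array medians in all 5 arrays.

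PTPRG and PTPRZ1 share a carbonic anhydrase-like ectodomain that binds contactins (subtype R5). PTPRZ1 is abundant in glia and in many gliomas, but its row was dim here, at 5.36, 5.47 and 5.18 in the TIP-1 shRNA arrays and 5.22 and 5.50 in the controls, with a difference of -0.02 (95% interval -0.33 to 0.30). PTPRG read 9.82, 9.63 and 10.36 with shRNAs 1, 2 and 3, against 9.71 and 9.99 in the controls. As with PTPRS, shRNA 3 was the highest of the 5 arrays, and the difference of 0.09 became -0.12 without it. PTPRE, a short receptor whose relative PTPRA activates Src kinases, differed by 0.18 (95% interval -0.12 to 0.49). Leaving out shRNA 3 gave PTPRE 0.0919, and leaving out shRNA 1 gave 0.28.

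PTPRC, or CD45, the phosphatase of leukocytes, varied more across the arrays than any other phosphatase gene. It read 8.39, 7.75 and 6.84 with shRNAs 1, 2 and 3, and 8.65 and 7.32 in controls 1 and 2, so the groups overlapped throughout and the range was 1.82 log2 units. The controls alone differed by 1.33, a gap met or exceeded by 45 of 18417 genes. The difference of -0.33 (SE 0.54) became 0.34 without control 1 and -0.996 without control 2. The log2 summed signal of 11 other leukocyte markers was 11.06, 10.98 and 10.96 in the TIP-1 shRNA arrays, against 11.09 and 11.12 in the controls. A sum of 11 genes evens out their changes and leans on the brightest, so its range cannot be set against that of PTPRC. CD53 read 7.09, 6.88 and 6.80 against 7.13 and 7.12, and SPI1, the myeloid and B-cell transcription factor, 8.26, 8.32 and 8.08 against 8.21 and 8.24. CD3D, a T-cell receptor subunit, read 7.09, 7.10 and 7.10 against 7.43 and 7.33 (difference -0.28, unadjusted p = 0.0127 and adjusted p = 0.707 with limma). Of the 11, 1 was higher and 10 lower in the TIP-1 shRNA arrays, 4 lay below both controls in all 3 (36.4%, against 14.1% of all genes), and the part of leukocyte RNA in the values of PTPRC was not tested.

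The receptors without phosphatase activity towards proteins, PTPRN and PTPRN2 (subtype R8), sit in the membranes of secretory granules. PTPRN read 7.73, 7.45 and 7.72 in the TIP-1 shRNA arrays and 7.80 and 8.06 in the controls. PTPRN2 read 8.53, 8.49 and 8.46 in the TIP-1 shRNA arrays and 8.54 and 8.89 in the controls. Both genes lay below both controls in all 3 shRNA arrays, though by little. For PTPRN2 all 3 values, and for PTPRN those of shRNAs 1 and 3, were within 0.1 log2 units of control 1. Their differences were -0.30 and -0.22 (limma adjusted p = 0.707 and 0.713), and without control 2 they were -0.16 and -0.05. PTPN5 and PTPN7, which act on MAP kinases as PTPRR does, differed by -0.18 and 0.02. The difference of PTPN5 was -0.0955 without shRNA 3.

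Of the 17 non-receptor genes, 11 differed between the groups by less than 0.1 log2 units, which was not counted over all genes. The 17 ran from -0.53 (PTPN13) to 0.34 (PTPN20). PTPN11, or SHP2, which carries growth factor signals to the Ras pathway, read 11.73, 11.75 and 11.72 with shRNAs 1, 2 and 3, against 11.67 and 11.71 in the controls. All 3 values were above both controls, but the difference was only 0.05 (95% interval -0.14 to 0.24). Its relative PTPN6, or SHP1, an enzyme of blood cells, read 7.73 to 7.88 against 7.84 in both controls (difference -0.01).

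PTPN1, the insulin receptor phosphatase PTP1B, read 11.45, 11.45 and 11.74 in the TIP-1 shRNA arrays and 11.48 and 11.31 in the controls (difference 0.16, 95% interval -0.15 to 0.46). Only shRNA 3 exceeded both controls, and the difference of PTPN1 was 0.0588 without shRNA 3, 0.0689 without control 2 and 0.24 without control 1. PTPN2, which acts on JAK kinases, differed by 0.09. PTPN12, which acts on focal adhesion proteins, read 11.13, 11.19 and 10.81 with shRNAs 1, 2 and 3, against 11.05 and 11.12 in the controls. Here shRNA 3 was the lowest of the 5 arrays, and the difference of -0.04 became 0.07 without it. PTPN14, a regulator of YAP, read 11.91, 11.91 and 11.78 against 11.98 and 11.60, with all 3 TIP-1 shRNA values between the controls (difference 0.08).

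Of the PDZ domain phosphatases, PTPN13 had the most negative difference of all 33 genes, at -0.53 (SE 0.40, 95% interval -1.50 to 0.43, limma adjusted p = 0.762). It read 6.12, 6.12 and 6.74 with shRNAs 1, 2 and 3, and 7.51 and 6.20 in controls 1 and 2. Control 1 stood apart from the other 4 arrays, and the gap of 1.31 between the controls was met or exceeded by 47 of 18417 genes. Without control 1 the difference was 0.12, and without control 2 it was -1.19. PTPN3 read 9.60, 9.63 and 9.95 in the TIP-1 shRNA arrays and 9.53 and 9.55 in the controls, above both controls throughout but with most of the difference of 0.18 in shRNA 3. Without shRNA 3 it was 0.07. PTPN4 differed by 0.04 (95% interval -0.19 to 0.27).

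PTPN20 read 6.42, 6.29 and 6.53 in the TIP-1 shRNA arrays and 6.16 and 6.00 in the controls on its brightest row. All 3 were above both controls, and the difference was 0.34 (SE 0.11, 95% interval 0.08 to 0.60, limma adjusted p = 0.707). The array holds 4 rows of this gene, which has near-identical copies, so the signal of one copy cannot be told apart from that of another. The other rows differed by 0.20, 0.16 and -0.04, and with the mean of the 4 rows in place of the brightest, PTPN20 no longer reached an unadjusted p of 0.05, leaving 2 phosphatase genes there. The remaining non-receptor genes, PTPN9, PTPN18, PTPN21, PTPN22 and PTPN23, differed by -0.14 to 0.08.

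**Figure D3:**
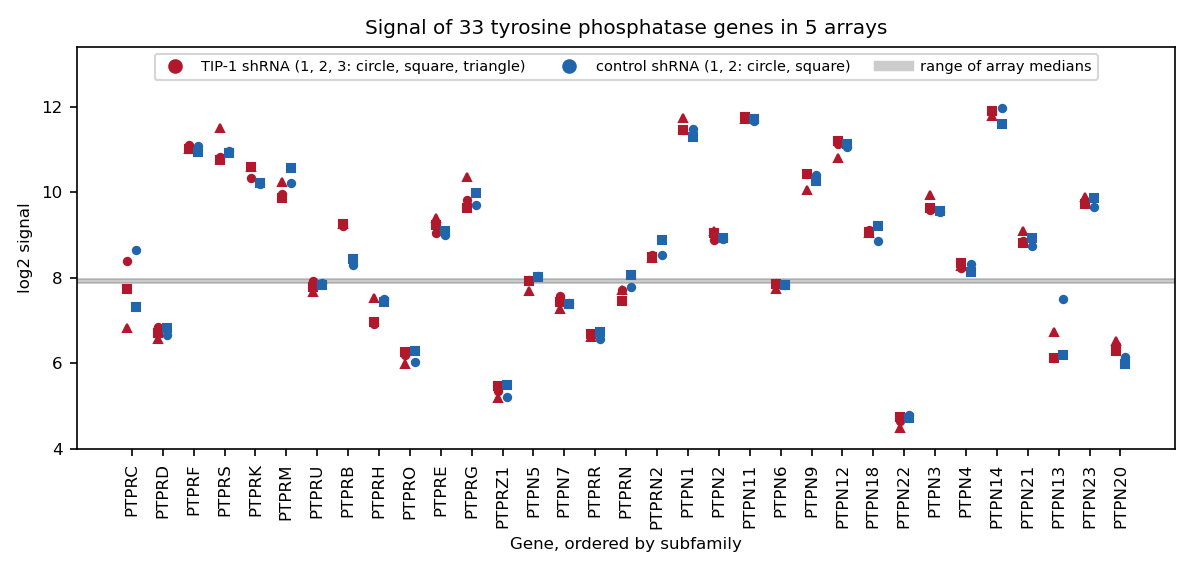
Log2 signal (y axis) of each of the 33 phosphatase genes, ordered by subfamily, in the TIP-1 shRNA arrays (red) and the control arrays (blue), with the range of the array medians as a grey band. PTPN14, PTPN11 and PTPN1 read above 11 in every array. PTPRC is spread widely in both groups, and PTPN13 is spread widely in the controls.

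The 6 rows with the highest mean were those of PTPN14, PTPN11, PTPN1, PTPN12, PTPRF and PTPRS. Rows differ in how strongly their probes bind, so this is an order of signals and not of transcript numbers. The dimmest rows were those of PTPN22, a lymphocyte phosphatase (4.48 to 4.74 in the TIP-1 shRNA arrays, against 4.80 and 4.72), and PTPRZ1.

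The 3 shRNAs differed from each other over these genes, as they did over all genes. Each had 1 array, and all 3 were set against the same 2 controls, so these values carry no test. Between shRNA 1 and shRNA 2, 1 of the 33 genes differed by more than 0.3 log2 units, while 10 did between shRNAs 1 and 3 and 11 between shRNAs 2 and 3. The 2 controls differed by that much in 6. These counts were not made over all genes, so they cannot be called many or few. Over all genes the SD of the difference was 0.134 between shRNAs 1 and 2, 0.304 between shRNAs 1 and 3, 0.296 between shRNAs 2 and 3 and 0.228 between the controls. Over the 33 genes the SD was larger in each of these pairs, at 0.158, 0.405, 0.347 and 0.378 in the same order. These SDs include PTPRC and PTPN13, whose controls alone differed by 1.33 and 1.31. They were not computed without these genes, so they do not show that the other phosphatase genes varied more than all genes. shRNA 3 was the highest or lowest of all 5 arrays in 23 of the 33 genes (69.7%), as it was in 59.6% of all 18417 genes, against 8 for shRNA 1 (24.2%, and 26.9% of all genes) and 9 for shRNA 2 (27.3%, and 31.1% of all genes). Relative to the control mean, PTPRB differed by 0.84, 0.89 and 0.89 in shRNAs 1, 2 and 3, PTPRS by -0.12, -0.20 and 0.55, PTPRH by -0.54, -0.50 and 0.06, and PTPRC by 0.40, -0.24 and -1.15. PTPRB was the only one of the 33 genes that lay more than 0.3 log2 units from the control mean on the same side in all 3 shRNAs. The share of all genes that did so was not counted.

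**Figure D4:**
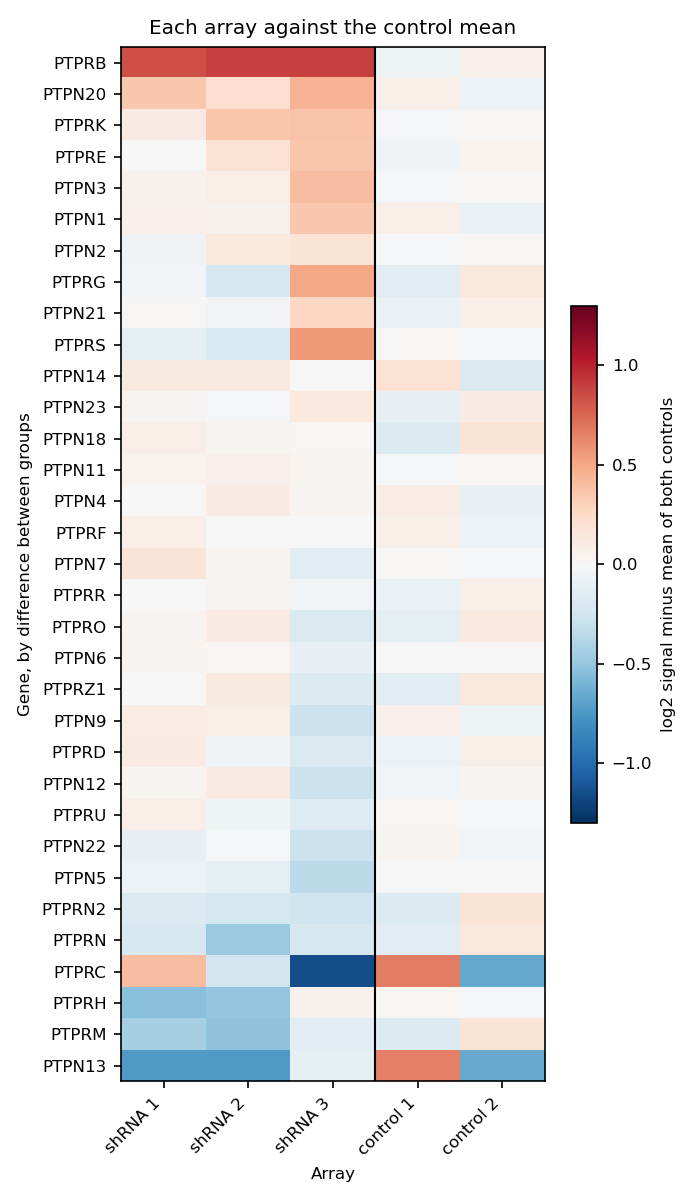
Log2 signal of each phosphatase gene in each array minus the mean of both controls (colour scale, log2 units), with genes ordered by the difference between groups and the TIP-1 shRNA arrays left of the controls. PTPRB is high in all 3 shRNA arrays, PTPRS and PTPRG are high in shRNA 3, and PTPRC and PTPN13 differ between the controls.

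Ligands and cell-surface partners of the receptor phosphatases were examined as a list of 31 genes, of which 30 had a row. None passed the test over all rows, and 6 had an unadjusted p under 0.05 (20%, against 6.02% of all genes), 4 higher and 2 lower. In 9 of the 30 (30%), all 3 TIP-1 shRNA arrays lay on the same side of both controls, against 26.5% of all genes. The list was chosen with earlier results of these data known, so these shares carry no test. The median difference of the list was -0.05. MDK and PTN encode midkine and pleiotrophin, the growth factors that bind PTPRZ1. MDK read 11.76, 11.72 and 11.70 in the TIP-1 shRNA arrays and 11.53 and 11.35 in the controls, a difference of 0.29 (SE 0.09). PTN read 8.38, 8.61 and 7.79 with shRNAs 1, 2 and 3, against 7.60 and 7.73 in the controls, so shRNA 3 was only just above them (difference 0.60, SE 0.23).

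The adhesion molecules NCAM1 and L1CAM were also above both controls in all 3 shRNA arrays. NCAM1 read 10.46, 10.42 and 10.52 against 10.25 and 10.10 (difference 0.29, SE 0.09), and L1CAM read 11.15, 11.09 and 11.57 against 10.86 and 10.87 (difference 0.41, SE 0.16). L1CAM differed by 0.26 without shRNA 3. Below the controls were IL1RAPL1, a synaptic partner of PTPRD, and tenascin-C, TNC, a matrix protein that binds PTPRZ1. IL1RAPL1 read 8.66, 8.27 and 8.52 in the TIP-1 shRNA arrays and 9.13 and 9.24 in the controls, a difference of -0.70 (SE 0.13, 95% interval -1.02 to -0.38), and TNC differed by -0.28 (SE 0.09). All 6 had a limma adjusted p of 0.707. IL1RAPL1, TNC and NCAM1 were named as the 3 with the smallest p of the list, and MDK, PTN and L1CAM were added after their values were seen.

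**Figure D5:**
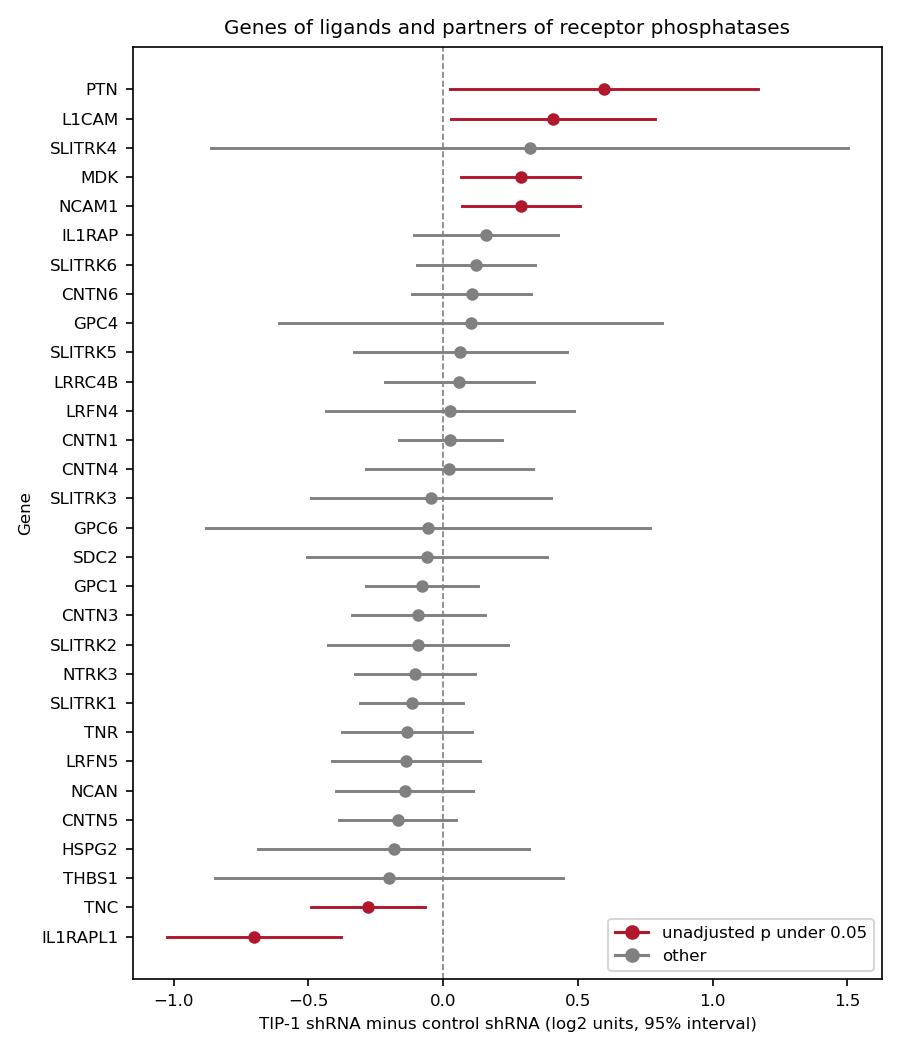
Difference between TIP-1 shRNA and control shRNA (log2 units, x axis) with limma's 95% interval for the 30 measured genes of ligands and partners of receptor phosphatases, with the 6 genes at an unadjusted p under 0.05 in red. MDK, PTN, NCAM1 and L1CAM lie above 0, and TNC and IL1RAPL1 lie below it.

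Adaptors and scaffolds that bring phosphatases to their substrates numbered 25, of which 23 had a row. Their median difference was 0.01, and 1 had an unadjusted p under 0.05 (4.35%, against 6.02% of all genes). This was IRS1, the insulin receptor substrate, which read 8.63, 8.67 and 8.84 in the TIP-1 shRNA arrays and 8.46 and 8.03 in the controls (difference 0.47, SE 0.15). The difference of IRS1 was 0.25 without control 2. The liprin PPFIBP2 differed by 0.42 (SE 0.21) and PSTPIP1, which links PTPN12 to the cytoskeleton, by -0.26 (SE 0.15). Without shRNA 1 the difference of PPFIBP2 was 0.23, and without shRNA 3 that of PSTPIP1 was -0.11.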

How the data were processed

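The authors deposited 1 table of log2 signals, which they made with the Affymetrix Exon Array Computational Tool, per the series' design text. For its version, background correction, summary and normalization, nothing is stated in those notes. The values were used as deposited. The design text names a Human Exon array, whereas the row identifiers matched the annotation of a gene-level array. Gene names rest on that annotation, which can be old: of 33297 rows, 19460 had 1 symbol. No genome build is stated, so no coordinates are given, and the gene table served only for neighbours.

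Groups followed the sample titles. Each difference is the TIP-1 shRNA mean minus the control mean. Moderated linear models (limma 3.58.1, run under R 4.3.3) gave two-sided p-values for all rows at once, adjusted by Benjamini-Hochberg and called at 0.05, and the 95% intervals. The test was checked on simulated data. With 2 arrays against 3, the number of arrays limits the precision, and p-values measure the spread between clones and shRNAs. Fewer cells and less RNA per cell cannot be told apart.

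Members and lists were chosen with earlier results of these data known. Values in every array were given for PTPRB, its R3 relatives, members at an unadjusted p under 0.05 or a difference of at least 0.4, and the 6 brightest, with others added where a library decided the value. For each partner list the 3 genes with the smallest p were named. The planned comparison of PTPRB with its R3 relatives was run on PTPRH and PTPRO. Alternatives were quantile normalization, median centring, bright rows only, a trended robust fit, array weights, a replicate block, the mean of a gene's rows and leaving out each array. Only the TIP-1 shRNA group has a number 3, so the replicate block gives the same differences as leaving out shRNA 3.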

Additional observations from a re-analysis of the deposited data

How the results depend on the processing

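PTPRB kept its direction in every alternative run, with differences of 0.80 to 0.94 when each array was left out, and PTPRB minus PTPRH and PTPRO differed by 1.02 to 1.09. That comparison has no value with bright rows only, the trended robust fit or array weights. No phosphatase gene passed the adjusted threshold in any alternative. TAX1BP3 ranged from -2.50 to -2.37 with each array left out, and lost its call without control 1, control 2 or shRNA 2 (limma adjusted p = 0.386, 0.387 and 0.129). Rows called over the whole table numbered 1 as reported, 2 with array weights, 15 with the replicate block and 0 to 6 with each array left out. Phosphatase genes at an unadjusted p under 0.05 numbered 3 as reported, 6 with array weights, 5 with the replicate block, 2 with bright rows only, 2 with the mean of a gene's rows and 2 to 5 with each array left out (5 without control 1). Genes apart from both controls numbered 8 as reported, 5 with bright rows only, 6 with median centring and 9 to 17 with each array left out, where fewer arrays make separation easier. The median difference of 0.02 was 0.0832 with median centring, 0.0764 with bright rows only, 0.05 with the replicate block and -0.00659 to 0.0454 with each array left out. The labels state no pairing of the numbers. In their deviations from the group means, same-numbered arrays correlated at 0.0486 and -0.0529. The deviations of 2 controls mirror each other, so these correlations cannot show whether the numbers pair samples.

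Of 382 values for the genes other than PTPRB, PTPRCAP included, 66 changed sign, and none gained or lost a call. With quantile normalization these were PTPN6 0.052, PTPRD 0.026, PTPRO 0.028, PTPRR 0.062 and PTPRU 0.021. With median centring they were PTPN12 0.016, PTPN6 0.046, PTPN9 0.027, PTPRCAP 0.045, PTPRD 0.0201, PTPRO 0.047, PTPRR 0.058, PTPRU 0.013 and PTPRZ1 0.043. With array weights they were PTPN12 0.051, PTPN6 0.017, PTPN9 0.052, PTPRCAP 0.0014, PTPRG -0.10, PTPRO 0.063, PTPRR 0.018, PTPRS -0.11 and PTPRZ1 0.059. With the replicate block they were PTPN12 0.072, PTPN21 -0.0097, PTPN6 0.032, PTPN9 0.0899, PTPRC 0.081, PTPRCAP 0.0055, PTPRD 0.031, PTPRG -0.12, PTPRO 0.074, PTPRR 0.013, PTPRS -0.16, PTPRU 0.013 and PTPRZ1 0.0600. These equal the differences without shRNA 3, so both runs count the same sign changes among the 66. With each array left out, the ranges across 0 were PTPN12 -0.12 to 0.072, PTPN13 -1.19 to 0.12, PTPN14 -0.11 to 0.26, PTPN18 -0.12 to 0.22, PTPN21 -0.0097 to 0.17, PTPN23 -0.053 to 0.15, PTPN4 -0.049 to 0.13, PTPN6 -0.041 to 0.032, PTPN7 -0.052 to 0.10, PTPN9 -0.10 to 0.0899, PTPRC -0.996 to 0.34, PTPRCAP -0.081 to 0.0496, PTPRD -0.12 to 0.039, PTPRF -0.047 to 0.11, PTPRG -0.12 to 0.24, PTPRO -0.14 to 0.12, PTPRR -0.086 to 0.0805, PTPRS -0.16 to 0.22, PTPRU -0.11 to 0.013 and PTPRZ1 -0.16 to 0.12. The cause of these changes was not tested.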

Other observations

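Other phosphatases and phosphatase-like proteins, such as the slingshot, CDC14, EYA and tensin families, were examined as a list of 22 genes, of which 21 had a row. None passed the test over all rows, 3 had an unadjusted p under 0.05 (14.3%, against 6.02% of all genes), all higher, and the median difference was -0.02. In 7 of the 21 (33.3%), all 3 TIP-1 shRNA arrays lay on the same side of both controls, against 26.5% of all genes. SSH3, a slingshot phosphatase of the actin regulator cofilin, read 9.61, 9.71 and 9.81 with shRNAs 1, 2 and 3, against 9.24 and 9.19 in the controls (difference 0.50, SE 0.09, limma adjusted p = 0.707). All 3 values lay above both controls. CDC14A read 9.33, 9.30 and 9.49 in the TIP-1 shRNA arrays and 9.10 and 9.04 in the controls (difference 0.30), and TNS2, a tensin of focal adhesions, differed by 0.19.

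The row shared by VPS16 and PTPRA read 10.04, 10.00 and 10.14 with TIP-1 shRNA and 9.87 and 10.03 in the controls, a difference of 0.11. PTPRCAP differed by -0.02.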
